A study of Mus musculus with 3 samples.

Results

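The genes described here are the 3 Mef2 transcription factors Mef2a, Mef2c and Mef2d, the 4 class IIa histone deacetylases Hdac4, Hdac5, Hdac7 and Hdac9, and the acetyltransferase coactivators Crebbp, Ep300 and Kat2b. They were taken by gene symbol from the count tables, and make up 10 of the 23238 symbols listed. MEF2 factors bind A/T-rich sites in the control regions of muscle genes and act together with the myogenic bHLH factors when myoblasts become myotubes. Class IIa HDACs bind MEF2 on chromatin and hold its targets repressed until kinases of the CaMK, PKD and SIK families phosphorylate them, after which 14-3-3 proteins keep them in the cytoplasm. The acetyltransferases p300 (Ep300), CBP (Crebbp) and PCAF (Kat2b) bind the same factors and activate transcription by acetylating histones and the factors themselves.

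RNA was sequenced from c2c12 cells, an immortalized mouse myoblast line, after 2 days in myogenic induction medium with 2% horse serum. All groups received this medium and differed in the substrate, which was a tissue culture plate (TCP), a hydrogel of 15% methacrylated gelatin (GelMA), or the same 15% gel with 1% poly(sodium-4-styrenesulfonate), a sulfonated heparin-like polymer (GelMA-PSS). There was 1 library per substrate, so the differences below could not be checked against replicates and no test was made. Total counts were 119799095 on TCP, 87071144 on GelMA and 192171443 on GelMA-PSS, and all 10 genes were far above the 3 counts taken as the detection floor, which correspond to 0.0246, 0.0330 and 0.0166 CPM. Levels are CPM, the count as a share of the library total, with TMM scaling for composition, ratios are on the scale of log2(CPM + 1), and a gene was called when its ratio passed 2-fold. The 95% Wilson intervals given with some levels cover counting error only. Counting 2 mates of a fragment separately would make them too narrow, and whether that was done is not given in the sources used here.

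All 10 genes had their lowest level in the GelMA-PSS library, a position shared by 39.3% of the 13169 genes with a CPM of at least 1 in any library. None of the 10 was highest there, whereas 45.3% of all genes were. After the correction for transcript length and GC content given further on, 8 of 10 were lowest on GelMA-PSS, beside 40.7% of the 13060 genes with a length, and 2, Hdac5 and Kat2b, were highest, beside 40.8%. With longest transcripts these were 7 of 10 beside 40.6% and 3 of 10 beside 40.2%, Hdac9 being the third. The size of the difference divided them. Crebbp, Hdac4, Mef2c and Ep300 were more than 2-fold lower on GelMA-PSS than on GelMA, 4 of 10 against 2.33% of all genes, and 0 of 10 were more than 2-fold higher against 1.77%. Against TCP, 2 of 10 were past 2-fold lower, Mef2c and Crebbp, beside 3.13% of all genes, and 0 were past 2-fold higher beside 3.72%. These 2 were also the ones past 2-fold below both other substrates (1.16% of all genes), and 0 were past 2-fold above both (1.37%). Between GelMA and TCP no member passed 2-fold in either direction, against 0.706% of all genes higher and 0.296% lower on GelMA. The 2 comparisons of GelMA-PSS share that library, and so are not independent of each other. In bulk RNA, fewer cells of a type and less RNA per cell cannot be told apart.

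**Figure D1:**
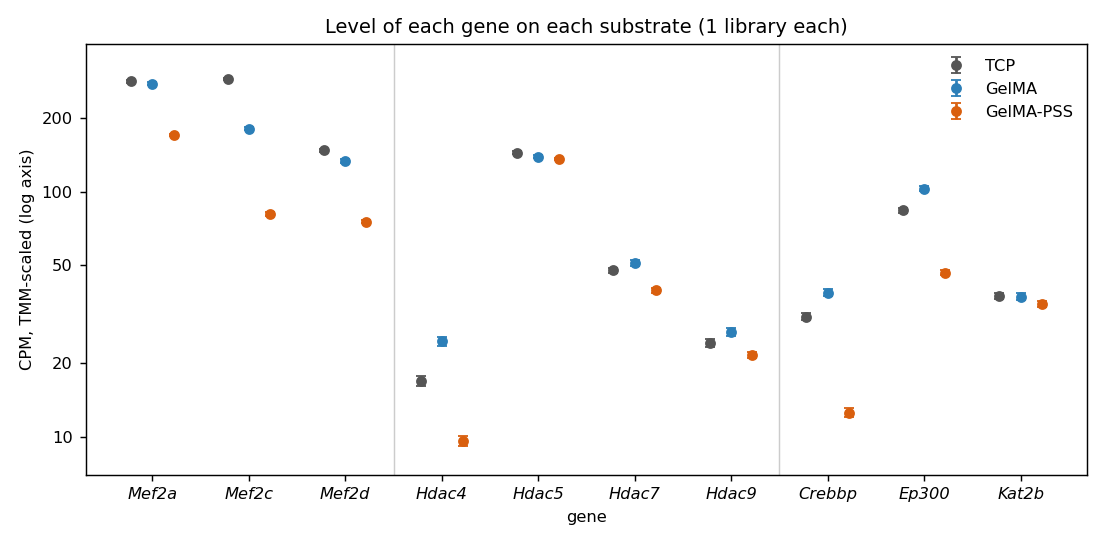
CPM with TMM scaling (log axis) of the 10 genes in the TCP, GelMA and GelMA-PSS libraries, with 95% Wilson intervals for counting error. The GelMA-PSS point is the lowest for each gene. It is more than 2-fold below GelMA for Mef2c, Hdac4, Crebbp and Ep300, and close to both others for Hdac5 and Kat2b.

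Among the transcription factors, Mef2c separated the substrates most as measured. After the correction given further on, Mef2d was further below GelMA, at -0.96 beside -0.85 for Mef2c. With longest transcripts Mef2d was at -0.37 and Mef2c at -0.86. Mef2c (chr13:83504034-83667080, GRCm38), the form induced as myoblasts differentiate, was at 289 CPM on TCP (95% interval 286 to 292), 181 CPM on GelMA (178 to 183) and 81.0 CPM on GelMA-PSS (79.7 to 82.4). Its 3 intervals, which cover counting error only, did not overlap, and each substrate was below the one before it. The log2 ratios were -0.67 for GelMA against TCP, -1.15 for GelMA-PSS against GelMA and -1.82 for GelMA-PSS against TCP. The ratio between GelMA and TCP was the most negative of the 10 members, and 1.42% of all genes had a more negative one.

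Mef2a (chr7:67231163-67372858), which is already present in proliferating myoblasts, was at 281 CPM on TCP, 275 CPM on GelMA and 170 CPM on GelMA-PSS. The controls were close to each other, with a log2 ratio of -0.03 that became positive when the libraries were scaled by their totals alone, and GelMA-PSS stood apart at -0.69 against GelMA and -0.72 against TCP. Mef2d (chr3:88142372-88172086) was at 147 CPM on TCP, 133 CPM on GelMA and 75.4 CPM on GelMA-PSS, a log2 ratio of -0.82 between the gels and of -0.96 against TCP. Neither gene passed 2-fold with the main scaling, but Mef2d was at -1.06 against TCP when the libraries were scaled by their totals alone, which made it past 2-fold there. An antisense gene, 1700113A16Rik, overlaps Mef2d by 531 bases and had 2072, 1162 and 1444 counts on TCP, GelMA and GelMA-PSS, against 17917, 12131 and 13661 for Mef2d. Lysmd4, which lies on the other strand and overlaps Mef2a, had 1160, 694 and 1470 counts. The study describes its reads as strand-specific, but whether counting used the strand is not given in the sources used here, so the reads of such pairs cannot be told apart. The remaining family gene, Mef2b, was named after its values were seen and had 12, 11 and 38 counts, under the CPM of 1 required.

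The class IIa deacetylases differed among themselves. Hdac4 (chr1:91928779-92195699), a repressor of MEF2 in muscle, was at 16.9 CPM on TCP (95% interval 16.2 to 17.6), 24.5 CPM on GelMA (23.5 to 25.5) and 9.65 CPM on GelMA-PSS (9.21 to 10.1). It was thus highest on GelMA and lowest on GelMA-PSS, and was past 2-fold only between these 2. Its log2 ratio was 0.51 for GelMA against TCP, -1.26 for GelMA-PSS against GelMA and -0.75 for GelMA-PSS against TCP.

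Hdac5 (chr11:102194432-102230166), another repressor that leaves the nucleus on phosphorylation, was at 144 CPM on TCP, 139 CPM on GelMA (137 to 141) and 136 CPM on GelMA-PSS (134 to 138). The last 2 intervals overlap, and the log2 ratio of GelMA-PSS was -0.03 to GelMA and -0.08 to TCP. Hdac7 (chr15:97792664-97844502) was at 47.7, 51.0 and 39.6 CPM on TCP, GelMA and GelMA-PSS, and Hdac9 (chr12:34047580-34917095), known for short forms that lack the catalytic domain, was at 24.2, 26.8 and 21.6 CPM. Their log2 ratios of GelMA-PSS against GelMA were -0.36 and -0.30, far from the threshold. Counts for the long and short forms of Hdac9 are summed under its symbol. Hdac7 overlaps Slc48a1 on the other strand by 29 bases.

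The coactivators divided into the p300/CBP pair and Kat2b. Crebbp (chr16:4081328-4213997) was at 30.9 CPM on TCP (95% interval 30.0 to 31.9), 38.8 CPM on GelMA (37.5 to 40.1) and 12.5 CPM on GelMA-PSS (12.0 to 13.1). As measured, it had the most negative ratio of any member against GelMA. The log2 ratio was -1.55 between the gels and -1.24 with TCP as the reference, and 0.311% of all genes lay below it in the comparison with GelMA. Mef2c was further below GelMA after the correction given further on, with either transcript. There 3.98% of genes lay below Crebbp, or 3.31% with longest transcripts. Ep300 (chr15:81585351-81652077), its close paralog, was at 83.8 CPM on TCP, 103 CPM on GelMA and 46.8 CPM on GelMA-PSS. It followed the same order as Crebbp, with log2 ratios of 0.29 for GelMA against TCP, -1.12 for GelMA-PSS against GelMA and -0.83 for GelMA-PSS against TCP. Kat2b (chr17:53566861-53672720) was at 37.5, 37.3 and 34.8 CPM on TCP, GelMA and GelMA-PSS. Its log2 ratio of GelMA-PSS was -0.10 against each control, and its ratio of -0.01 between the controls became positive with upper-quartile scaling or with totals alone.

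The order of the substrates thus fell into 2 kinds. Mef2a, Mef2c, Mef2d, Hdac5 and Kat2b ran from TCP through GelMA to GelMA-PSS, as 21.2% of all genes did, with the place of GelMA and TCP turned for Mef2a and Kat2b under the scalings named above. Hdac4, Hdac7, Hdac9, Crebbp and Ep300 were highest on GelMA and lowest on GelMA-PSS, as 18.2% of all genes were. The median log2 ratio over the 10 members was -0.75 for GelMA-PSS against GelMA, -0.74 for GelMA-PSS against TCP and 0.04 for GelMA against TCP, where all tested genes had medians of 0.03, 0.04 and -0.01. After the correction given below, the members' medians in the 2 comparisons of GelMA-PSS were -0.41 and -0.27, or -0.37 and -0.29 with longest transcripts. Together the 10 genes took 0.112% of the counts on TCP, 0.105% on GelMA and 0.0591% on GelMA-PSS.

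Transcript length moved with these ratios across the whole data set. The 1306 genes in the shortest decile had a median log2 ratio of 0.58 for GelMA-PSS against GelMA, and the 1306 in the longest decile had -0.62, of which 205 were past 2-fold lower. Crebbp, Ep300 and Hdac4 belong to this longest decile, with transcripts of 10820, 9566 and 8100 bases. Mef2c and Mef2a, with 6277 and 5538 bases, belong to the next decile, whose median was -0.34. The members were long as a set, with a median transcript of 5095.5 bases against 2914 for all 13060 tested genes with a length. The labels name a SMARTER kit and the study a TruSeq one, so how the libraries were prepared is uncertain, and the cause of this relation was not tested.

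**Figure D2:**
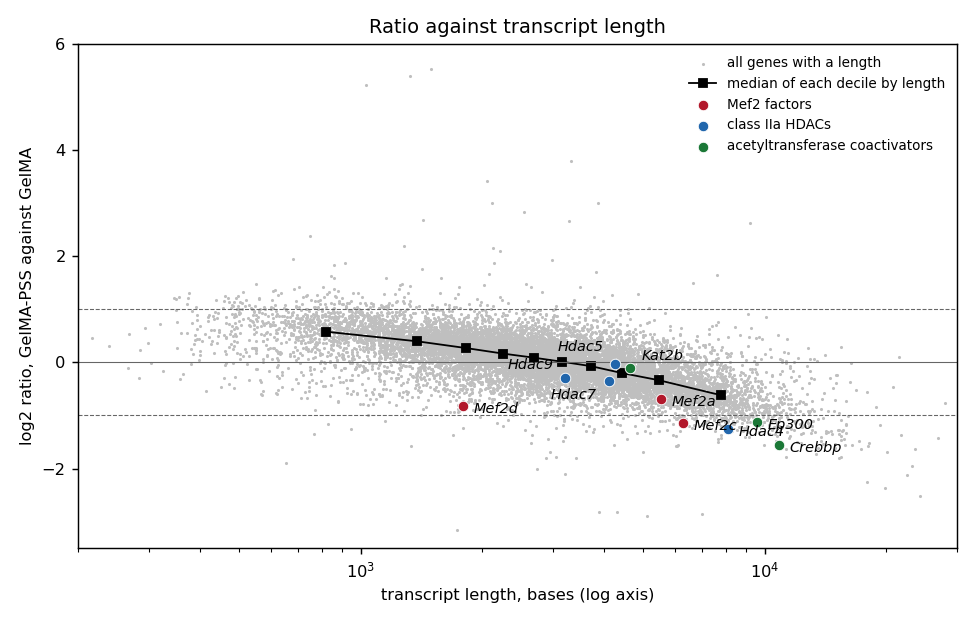
The log2 ratio of GelMA-PSS against GelMA plotted against transcript length (log axis) for 13060 genes in grey, with the median of each decile by length as black squares and the 10 genes in colour. Dashed lines mark 2-fold. The medians run from 0.58 in the shortest decile to -0.62 in the longest, where Crebbp, Ep300 and Hdac4 lie, and Mef2d sits far below genes of its listed length.

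A loess correction for transcript length and GC content left 0 of 10 members past 2-fold lower than on GelMA, beside 1.2% of all genes. Crebbp went from -1.55 to -0.67, Hdac4 from -1.26 to -0.60 and Ep300 from -1.12 to -0.35. Mef2c kept more of its ratio than these 3, going from -1.15 to -0.85 against GelMA and from -1.82 to -1.61 against TCP. Against TCP, 2 of 10 members were past 2-fold lower after the correction, Mef2c and Mef2d, beside 2.4% of all genes, and 0.314% of genes had a corrected ratio below that of Mef2c. Mef2a was at -0.47 against GelMA and -0.57 against TCP after the correction. Hdac5 and Kat2b changed sign, to 0.28 and 0.08 against GelMA, so that their position as lowest on GelMA-PSS did not hold after the correction.

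For Mef2d and Hdac9 the correction depends on the transcript chosen. The Mef2d transcript with the longest coding sequence has 1791 bases and the longest one has 5401, and the corrected log2 ratio was -0.96 with the former and -0.37 with the latter against GelMA, and -1.05 and -0.60 against TCP. The call for Mef2d against TCP was therefore lost with the longest transcript. For Hdac9 the lengths are 3204 and 7940 bases, and the corrected ratio against GelMA was -0.28 with the former and 0.32 with the latter. The longest transcripts were tried after the data had been seen. With either choice the 3 Mef2 factors stayed below 0 in both comparisons of GelMA-PSS, with a corrected median of -0.85 or -0.48 against GelMA. The median of the 4 class IIa HDACs went from -0.19 to 0.11 with the choice.

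**Figure D3:**
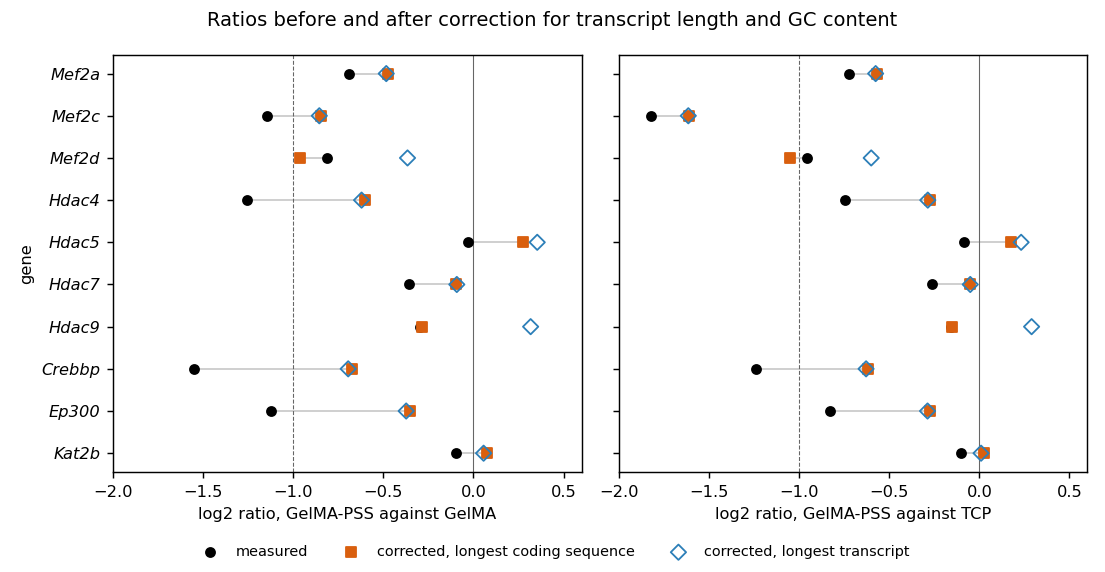
Log2 ratios of GelMA-PSS against GelMA (left) and against TCP (right) for each gene, as measured (black circles) and after correction for transcript length and GC content with the longest coding (squares) or longest (diamonds) transcript of each gene. Mef2c against TCP stays past the dashed 2-fold line at -1.61, while Crebbp against GelMA goes from -1.55 to -0.67.

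Levels of different genes were compared as CPM per kilobase of transcript. With the longest transcripts, the 3 Mef2 factors summed to 124 CPM per kilobase on TCP, 103 on GelMA and 57.6 on GelMA-PSS, and the share of Mef2c in this sum was 37.1%, 27.9% and 22.4%. Mef2a held 41.0% on TCP and 53.3% on GelMA-PSS, so the mix leaned toward Mef2a where Mef2c was low. With the transcripts of longest coding sequence Mef2d led instead, at 45.9% on TCP and 49.1% on GelMA-PSS, and the share of Mef2c was 25.7% on TCP, 18.8% on GelMA and 15.1% on GelMA-PSS. The decrease in the share of Mef2c from TCP through GelMA to GelMA-PSS was seen with both lengths. With the corrected ratios applied to the levels on GelMA, its share on GelMA-PSS was 22.5% with the longest transcripts and 17.8% with the others, beside 27.9% and 18.8% on GelMA.

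The class IIa HDACs, with the longest transcripts, summed to 46.1 CPM per kilobase on TCP, 47.1 on GelMA and 41.3 on GelMA-PSS. Hdac5 made up 64.4%, 60.8% and 67.8% of that sum, and Hdac4 4.52%, 6.42% and 2.89%. Per kilobase, then, the RNA of this class was mostly Hdac5. The coactivators summed to 19.7 CPM per kilobase on TCP, 22.4 on GelMA and 13.5 on GelMA-PSS. Ep300 held the largest share on TCP and GelMA, at 44.5% and 48.1%, and Kat2b on GelMA-PSS, at 55.3%, where Ep300 held 36.1% and Crebbp 8.57%. When the corrected ratios were applied to the levels on GelMA, an alternative chosen after seeing the data, Kat2b and Ep300 were nearly level on GelMA-PSS, at 44.4% and 44.0%, and Crebbp held 11.6%. Applied to the levels on TCP, the shares of Kat2b and Ep300 were 47.5% and 41.9%.

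The genes around these factors were described from 8 lists. Of 23 genes regarded as MEF2 targets in muscle, all expressed, 13 were lower on GelMA-PSS than on both other substrates and 1, Jun, was higher, with 0 past 2-fold against both, where 39.3% of all genes were lower and 45.3% higher. The list median was -0.13 for GelMA-PSS against GelMA, -0.59 for GelMA-PSS against TCP and -0.47 for GelMA against TCP. After the correction these were -0.32, -0.73 and -0.50. Then 20 of the 23 were lower on GelMA-PSS than on both others and 1 higher, beside 40.7% and 40.8% of all genes. Among the sarcomeric M-band genes, Myom1 was at 236 CPM on TCP, 174 on GelMA and 102 on GelMA-PSS, and Myom2 at 1147, 865 and 550 CPM. The actin-binding Xin genes Xirp1, at 146, 105 and 58.9 CPM, and Xirp2, at 7.87, 3.97 and 1.87 CPM, followed the same order. Against TCP these 4 were past 2-fold on GelMA-PSS, with log2 ratios of -1.20 for Myom1, -1.06 for Myom2, -1.30 for Xirp1 and -1.63 for Xirp2. These were the 4 of 23 genes of the list past 2-fold lower than on TCP as measured, beside 3.13% of all genes. After the correction the number was 6, beside 2.4% of all genes. Of these 6, Xirp2, at -1.06, was the only one among the 4 above, while its ratio against GelMA turned from -0.79 to 0.04. The other 5, named after their values were seen, were Myl4 at -1.27, Lmod2 at -1.09, Lmod3 at -1.05, Pgam2 at -1.01 and Myoz2 at -1.01.

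Of the 22 listed kinases that phosphorylate class IIa HDACs or act upstream of those that do, 20 were expressed. On GelMA-PSS 12 were lowest and 3 highest, beside 39.3% and 45.3% of all genes. Past 2-fold below both was 1 gene, beside 1.16% of all genes. It was Prkaa2, a catalytic subunit of AMPK, at 18.4 CPM on TCP, 15.2 on GelMA and 6.48 on GelMA-PSS. Against GelMA the log2 ratio was -1.12 and against TCP -1.37, or -0.63 and -1.04 after the correction. Camk2a, a calcium/calmodulin-dependent kinase, was at 123, 85.1 and 46.7 CPM on TCP, GelMA and GelMA-PSS, and its log2 ratio of -1.38 against TCP was -1.32 after the correction, or -1.13 with its longest transcript. Against TCP 3 were past 2-fold lower, Prkaa2, Camk2a and Camk2b, beside 3.13% of all genes. Camk2b, named after its values were seen, was at -1.21 there, or -1.24 after the correction. The salt-inducible kinase genes Sik1, at 156, 137 and 87.1 CPM, and Sik2, at 11.5, 14.6 and 8.34 CPM, were also lowest on GelMA-PSS. The 3 highest were Stk11, Camk1 and Camk2g, named after their values were seen. Their log2 ratios against GelMA were 0.63, 0.54 and 0.08, or 0.64, 0.25 and -0.12 after the correction. The list median was -0.27 against GelMA and -0.23 against TCP, or -0.15 and -0.17 after the correction, and -0.10 against GelMA with longest transcripts. With the corrected ratios 11 were lowest and 5 highest, beside 40.7% and 40.8% of all genes.

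Of the 14 listed phosphatase, 14-3-3 and exporter genes 13 were expressed. On GelMA-PSS 9 of these were highest and 2 lowest, beside 45.3% and 39.3% of all genes, and 0 were past 2-fold. After the correction the counts were also 9 and 2, beside 40.8% and 40.7% of all genes, but Ppp2cb left the 9 and Xpo1 joined them. These 2 genes, named after their values were seen, went from 0.26 to -0.05 and from -0.02 to 0.24 against GelMA. The list median was 0.17 against GelMA, and 0.11 after the correction. The 14-3-3 genes Ywhaq and Ywhah were at 199 and 113 CPM on TCP, 232 and 128 on GelMA, and 365 and 201 on GelMA-PSS. Their log2 ratios against GelMA were 0.65 each, and 0.39 and 0.36 after the correction. Ywhae was at 716, 655 and 873 CPM, a log2 ratio of 0.41 against GelMA that was 0.11 after the correction. Ppp1r12a, the targeting subunit of myosin phosphatase, which can dephosphorylate class IIa HDACs, went the other way at 113, 109 and 72.0 CPM, with -0.59 against GelMA before and after the correction. The other gene lowest on GelMA-PSS was a 14-3-3 gene, Ywhag, named after its values were seen, at 275, 264 and 225 CPM, with -0.23 against GelMA, or -0.16 after the correction.

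Of the 15 corepressor partners, all expressed, 8 were lowest on GelMA-PSS and 5 highest, beside 39.3% and 45.3% of all genes. Ncor1, a corepressor that joins class IIa HDACs to Hdac3, was at 174 CPM on TCP, 197 on GelMA and 115 on GelMA-PSS, and the log2 ratio of -0.77 against GelMA was -0.07 after the correction. The heterochromatin protein gene Cbx5, at 409, 417 and 244 CPM, and Tbl1xr1, a subunit of the same corepressor complex, at 49.2, 49.4 and 33.7 CPM, had log2 ratios of -0.77 and -0.54 against GelMA, or -0.19 and -0.02 after the correction. With length and GC content accounted for, the list median went from -0.37 to -0.07 against GelMA. Lowest were then 8 and highest 5, beside 40.7% and 40.8% of all genes.

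The list of 13 other histone deacetylases and sirtuins, which leaves out Hdac3 because it stands among the corepressor partners, had 9 highest and 1 lowest on GelMA-PSS, where 45.3% and 39.3% of all genes were, and 0 past 2-fold against both. Their median was 0.20 against GelMA. After the correction 6 were highest and 4 lowest, beside 40.8% and 40.7% of all genes, and the median was 0.05. The class I genes Hdac1 and Hdac2 were at 72.8 and 172 CPM on TCP, 78.2 and 139 on GelMA, and 101 and 194 on GelMA-PSS, with log2 ratios against GelMA of 0.37 and 0.48, or 0.14 and 0.16 after the correction. With the longest transcript of Hdac2 its corrected ratio was 0.37 against GelMA, and against TCP its ratio of 0.17 became -0.07 or 0.08 with the choice of transcript. The mitochondrial sirtuin genes Sirt3, at 11.3, 11.1 and 15.6 CPM, and Sirt5, at 6.74, 6.25 and 9.72 CPM, were also highest on GelMA-PSS. Their log2 ratios against GelMA were 0.46 and 0.56, or 0.18 and 0.33 after the correction.

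Of the 15 other acetyltransferases and p300 partners, 9 were lowest on GelMA-PSS and 5 highest, beside 39.3% and 45.3% of all genes. There were 0 past 2-fold against both, and the median was -0.07 against GelMA, or -0.02 after the correction. Corrected ratios left 7 lowest and 4 highest, beside 40.7% and 40.8% of all genes. Kat6a and Kat6b, paralogous MYST acetyltransferases, were at 49.9 and 23.5 CPM on TCP, 60.3 and 28.1 on GelMA, and 28.4 and 14.4 on GelMA-PSS. They shared the order of Crebbp and Ep300, with log2 ratios of -1.06 and -0.91 against GelMA, which were -0.37 and -0.35 after the correction. The steroid receptor coactivator genes Ncoa1, at 24.6, 22.5 and 12.6 CPM, and Ncoa2, at 52.8, 60.2 and 32.6 CPM, had log2 ratios of -0.79 and -0.86 against GelMA. These were -0.57 and -0.55 after the correction, or -0.28 and -0.19 with their longest transcripts.

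Of 23 listed kinases, phosphatase subunits and regulators acting on MEF2, 21 were expressed. On GelMA-PSS 11 were lowest and 8 highest, beside 39.3% and 45.3% of all genes. The median was -0.01 against GelMA, or -0.07 after the correction, when 12 were lowest and 5 highest, beside 40.7% and 40.8% of all genes. Gsk3b, the gene of glycogen synthase kinase 3β, was at 97.1 CPM on TCP, 99.5 on GelMA and 52.3 on GelMA-PSS. Its log2 ratio of -0.91 against GelMA was -1.27 after the correction with a transcript of 1750 bases and -0.35 with the longest one, of 8303 bases, so it depends on the transcript chosen. Rcan2, a calcineurin regulator, was at 38.6, 41.0 and 67.7 CPM, and Cdk5, a kinase that phosphorylates MEF2, at 66.0, 63.6 and 95.9 CPM. Both were highest on GelMA-PSS, with log2 ratios of 0.71 and 0.58 against GelMA, or 0.63 and 0.41 after the correction. Prkacb, a catalytic subunit of protein kinase A, was at 78.5, 78.2 and 62.3 CPM.

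The 24 listed symbols of partner factors stand for 22 genes, since 2 genes were listed under an older and a newer symbol. All 22 were found, 19 were expressed, and 11 were lowest and 6 highest on GelMA-PSS, beside 39.3% and 45.3% of all genes. The list median was -0.30 against GelMA and -0.04 after the correction, when 9 were lowest and 6 highest, beside 40.7% and 40.8% of all genes. Tead1, which binds muscle promoters beside MEF2, was past 2-fold below both, at 143 CPM on TCP, 133 on GelMA and 60.6 on GelMA-PSS, a log2 ratio of -1.12 against GelMA that was -0.37 after the correction. Akap6, the anchoring protein mAKAP, was at 141, 134 and 70.2 CPM, and its log2 ratio of -0.92 against GelMA was 0.11 after the correction. In the other direction, the myoblast determination factor Myf5 was at 13.9, 19.5 and 36.5 CPM, and Vgll2, a TEAD and MEF2 cofactor, at 14.0, 13.9 and 28.0 CPM. Against GelMA the log2 ratio was 0.87 for Myf5 and 0.97 for Vgll2, and against TCP it was 1.33 and 0.95. After the correction these were 0.53 and 0.80 against GelMA and 1.07 and 0.84 against TCP.

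The pattern of each called member over the 3 libraries was set beside those of 9656 other genes by the distance between pairs of log2 ratios. Nearest to Mef2c were Mylk4, Padi2 and Myh3, and nearest to Hdac4 were Tiam1, Olfr856-ps1 and Kcnq1ot1. Nearest to Crebbp were Ubn2, 5430431A17Rik and Mdn1, and nearest to Ep300 were Map3k2, Arhgef12 and Nfib. Myh3, the embryonic myosin heavy chain, was at 10182 CPM on TCP, 6355 on GelMA and 3037 on GelMA-PSS. Ubn2 was at 42.4, 53.6 and 17.4 CPM, with a distance of 0.0209 from Crebbp. A pattern over 3 libraries has few ways to differ, and the likeness is given as a description.

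The c2c12 cells expressed their defining markers on every substrate. The 6 myoblast markers were all expressed and summed to 5047 CPM on TCP, 4332 on GelMA and 4478 on GelMA-PSS. Des, the most abundant, was at 3299, 2863 and 3154 CPM. Myf5, Myod1 and Cdh15 were highest on GelMA-PSS, with log2 ratios against GelMA of 0.87, 0.19 and 0.14, or 0.53, 0.04 and 0.27 after the correction. Pax7 and Ncam1 were lowest there, at -0.72 and -0.56 against GelMA, or -0.87 and -0.56 after the correction. Of 6 myotube markers, 5 were found, all expressed, with sums of 22168, 15916 and 12630 CPM and Myh3 the most abundant. The myotube sum had the same order as Mef2c. Without Myh3, an alternative chosen after seeing the data, the other 4 summed to 11986 CPM on TCP, 9561 on GelMA and 9593 on GelMA-PSS, and the order of the gels turned with the scaling, to 9620 and 9550 CPM with upper quartiles. As measured, 3 of the 5 were lower on GelMA-PSS than on both other substrates, beside 39.3% of all genes. After the correction all 5 were, beside 40.7% of genes, or 40.6% with longest transcripts. The part of these markers in the result was not tested. Within that list the ratio differed between genes, since Myog, itself a MEF2 target, was at 1100, 895 and 1037 CPM. The 4 fibroblast genes, led by Pdgfra with 3 expressed, summed to 9.21, 14.5 and 11.2 CPM on TCP, GelMA and GelMA-PSS, and the 4 macrophage genes, with only Cd68 expressed, to 1.75, 1.86 and 1.62 CPM. Of the 4 endothelial genes 0 were expressed, with sums of 0.756, 0.682 and 0.905 CPM led by Tek, and of the 4 adipocyte genes 0 were expressed, with sums of 0.0985, 0.0770 and 0.0662 CPM led by Adipoq. Of the 4 neuronal genes 2 were expressed, summing to 50.8, 64.3 and 101 CPM and led by Tubb3, at 47.1, 60.4 and 99.0 CPM. The other, Snap25, was lowest on GelMA-PSS, at 3.62, 3.77 and 1.95 CPM. Of the 4 cardiomyocyte genes only Myh6 was expressed, and the sum was 457, 144 and 48.6 CPM, again in the order of Mef2c. Tcf21 of the fibroblast genes and Myl7 of the cardiomyocyte genes were at 0 in all 3 libraries.

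The promoters of 2 members, Mef2a and Hdac5, hold the letters of the MEF2 site next to the start of transcription. The MEF2 site, searched in its strict form on both strands, was in 2 of 17 RefSeq promoters (GRCm38, 250 bases before to 50 after the start) of the 10 members, and in 0.557% of all 32851 promoters. Each is shown with its flanks, 5′ to 3′ on the strand of the gene, with the match in capitals. In Mef2a it lies at chr7:67372851-67372860 on the minus strand and begins 2 bases before the start. In Hdac5 it lies at chr11:102230183-102230192 on the minus strand and begins 20 bases before the start.
Mef2a: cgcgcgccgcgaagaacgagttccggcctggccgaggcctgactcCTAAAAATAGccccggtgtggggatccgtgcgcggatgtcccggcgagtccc
Hdac5: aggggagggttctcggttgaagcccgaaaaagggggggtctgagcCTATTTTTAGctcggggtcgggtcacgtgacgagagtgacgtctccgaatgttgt

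For comparison, 3 of 17 promoters of 16 listed MEF2 target genes held the strict form, those of Xirp2, Myoz2 and Jun. They are shown because their genes stood differently on GelMA-PSS. Xirp2 was past 2-fold below TCP there, Jun was highest there, at 114 CPM on TCP, 120 on GelMA and 134 on GelMA-PSS, and Myoz2, a Z-disc gene, was at 163, 101 and 107 CPM. The windows are chr2:67445883-67445982 on the plus strand, chr3:123034966-123035065 on the minus strand and chr4:95052201-95052300 on the minus strand. A looser form of the MEF2 site was in 6 of the 17 target promoters, in 2 of the 17 member promoters and in 3.19% of all promoters. A match is a description of the sequence, and binding was not measured.
Xirp2: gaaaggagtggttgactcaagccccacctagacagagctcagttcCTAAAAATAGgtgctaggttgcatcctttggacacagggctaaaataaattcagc
Myoz2: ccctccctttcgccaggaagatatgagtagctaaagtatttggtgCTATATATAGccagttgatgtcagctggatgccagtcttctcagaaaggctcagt
Jun: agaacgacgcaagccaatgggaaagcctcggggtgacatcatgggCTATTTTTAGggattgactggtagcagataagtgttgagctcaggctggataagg

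Hdac4 is also a known target of the muscle microRNA miR-206, which is made in differentiating myoblasts and was not measured in these libraries. Its mature strand (RefSeq, GRCm38, chr1:20679055-20679076 on the plus strand) is shown with the seed, bases 2 to 8, in capitals, beside the 29 bases around the 1 match to it in the 3′ UTR of Hdac4, at chr1:91930053-91930081 on the minus strand, with the match ACATTCC in capitals. In the 3′ UTRs of the other 9 members the number of matches was 0.
miR-206-3p: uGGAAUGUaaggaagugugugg
Hdac4 site: gtttctttcctcagaACATTCCttcttca
The long noncoding RNA Linc-md1, a muscle transcript known to hold microRNAs away from the Mef2c and Maml1 messages, was looked up after its values were seen. Linc-md1 was at 7.31 CPM on TCP, 11.2 on GelMA and 9.12 on GelMA-PSS, and Maml1, a MEF2C coactivator, at 26.0, 28.0 and 20.1 CPM. Neither followed the order of Mef2c.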

How the data were processed

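For each substrate the authors deposited a table of raw counts by gene symbol, made from paired-end reads that the study describes as strand-specific. The processing notes name TopHat, edgeR, mm10 and hg19 without roles, and the counting tool and its strand setting are not given in the sources used here. Lines sharing a symbol were summed. Counts were scaled to CPM with TMM factors of 1.02, 1.04 and 0.943 for TCP, GelMA and GelMA-PSS (edgeR 4.0.16, R 4.3.3), and genes were kept where any library reached a CPM of 1. Ratios used a pseudocount of 1 CPM. Intervals came from scipy 1.17.1. Lengths and base composition of transcripts were taken from GENCODE vM21 (GRCm38) by symbol, and the correction subtracted 2 loess fits (span 0.3, statsmodels 0.14.6). Promoters and the microRNA came from RefSeq, and all 10 members matched. The 2-fold call and the correction were tried on simulated counts with a length effect. Those counts were scaled by library totals, so TMM scaling was not tested, nor was a GC effect. Members and lists were chosen with earlier results of these data known. All members are named. From each list the text names every gene past 2-fold on GelMA-PSS against both others and the 4 with the largest ratio against GelMA, leaving out 1 gene not reported here, and Jun, Ywhag, Myl4, Lmod2, Lmod3, Pgam2, Myoz2, Myog, Linc-md1, Maml1 and Mef2b after their values were seen. Likeness used genes reaching a CPM of 10 in any library.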

Additional observations from a re-analysis of the deposited data

How the results depend on the processing

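No paired analysis was possible because there was 1 library per substrate. The main settings called 540 genes for GelMA-PSS against GelMA, 902 for GelMA-PSS against TCP and 132 for GelMA against TCP, and 4, 2 and 0 members. With a pseudocount of 0.25 the last comparison had 259 genes. At 1.5-fold the genes numbered 2871, 3247 and 740, and the members 6, 6 and 1, in the same order. Past 1.5-fold, 1423 and 1509 of the 13169 tested genes were lower on GelMA-PSS, as were the 6 members each time. The correction for length and GC content gave 244 and 578 genes in the comparisons with GelMA-PSS, and 0 members against GelMA. With longest transcripts, an alternative chosen after seeing the data, these were 228, 566 and 0, with 1 member against TCP. The causes were not tested. Scaling by library totals alone moved the median of all genes to -0.10 and -0.06 in the comparisons with GelMA-PSS, and gave 120 genes higher and 506 lower against GelMA, where the main scaling gave 233 and 307, and 338 higher and 576 lower against TCP, where it gave 490 and 412. Mef2d, at -1.06, was then past 2-fold against TCP, where 3 members were called. Of 30 member ratios, 2 changed sign under that scaling, 1 under upper-quartile scaling and 0 under median-of-ratios scaling, another pseudocount or another filter. The correction changed the sign of 4, or 6 with longest transcripts.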
